A study of Mus musculus with 6 samples.

Results

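Transcripts of the angiopoietin family were examined in ribosome-associated RNA from a pulldown aimed at lung pericytes. The 10 genes were chosen by name, through the Ensembl identifiers that carry their symbols in the GENCODE M21 annotation, and all 10 were present among the 21603 genes of each file. They comprise 3 angiopoietins (Angpt1, Angpt2 and Angpt4), 5 genes for angiopoietin-like proteins (Angptl1, Angptl2, Angptl4, Angptl6 and Angptl7) and the 2 Tie receptor genes (Tek and Tie1). RNA came from lungs at postnatal day (P) 8, with 3 samples from control mice and 3 from Yap1,Wwtr1 iPCKO mutants (iPCKO 1 to 3). The mice were C57BL/6 and carried Pdgfrb(BAC)-CreERT2, a tamoxifen-inducible Cre driven by regulatory sequence of the pericyte gene Pdgfrb, and received tamoxifen from P0 to P2 in both groups. All carried the RiboTag allele of Rpl22, which gives ribosomes of Cre-recombined cells an HA tag by which their RNA is precipitated from whole lung lysate. Control mice were Cre-positive and labelled Yap1+/-;Wwtr1+/-, and mutants were labelled Yap1-/-;Wwtr1-/-, so both groups had lost at least one copy of each gene in recombined cells. Yap1 and Wwtr1 encode YAP1 and TAZ, coactivators of the Hippo pathway that act through TEAD transcription factors.

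Angiopoietins are secreted ligands of the receptor tyrosine kinase TIE2, the product of Tek, which is found mainly on endothelial cells. Angpt1 is made by perivascular cells and activates the receptor, which stabilises vessels, whereas Angpt2 is best known from endothelium and can activate or antagonise it depending on context. Tie1 encodes a co-receptor that modulates TIE2, and the angiopoietin-like proteins share the domain structure of the ligands but do not bind TIE2.

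Values are the authors' RPKM, reads scaled to gene length and to the depth of the library, so levels can be set side by side between genes. Low values implied depths of 17.44 to 34.7 M reads in controls and 14.26 to 39.63 M in mutants. Groups were compared with limma on log2(RPKM + 0.1) for the 12034 genes that reached 1 RPKM in at least 3 samples, and a gene was called when its adjusted p was under 0.01 with a log2 fold change beyond 0.5 in either direction. These fold changes are iPCKO minus control and understate the change of low genes. The deleted Yap1 was at 13.21, 11.49 and 12.35 RPKM in controls and at 5.76, 5.83 and 5.25 RPKM in mutants, whereas Wwtr1 ranged from 53.78 to 71.25 RPKM in controls and from 60.27 to 63.5 RPKM in mutants, and was not called. The labels were thus checked by Yap1 alone, since values of the deleted exons were not analysed here. Pdgfrb reached 1369 to 1666 RPKM in controls and 1193 to 1447 RPKM in mutants. Of 10 pericyte markers, 3 were called higher (Cspg4, Kcnj8 and Abcc9) and 2 lower (Notch3 and Mcam), and the mean log2 level of the list overlapped between groups. Libraries differed in a further respect. Controls 1 and 3 held transcripts of 4 Y-linked genes, which summed to 35.0 and 40.8 RPKM, while control 2 and all 3 mutants lay at or below 0.075 RPKM. Values with this difference as a covariate are therefore given beside the main calls of family genes, pathway genes and Ralgps2. Other calls, such as those of Yap1, marker genes and genes of like profile, are given without such a value. The covariate fold changes are those of control 2 alone against the mutants. Their p-values assume that this 1 sample varies like the other libraries, so a call kept with the covariate is not a replicated one.

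The clearest differences among the 10 genes were found for the ligands. Angpt1 and Angpt2 were both several-fold lower in Yap1,Wwtr1 iPCKO samples, while neither receptor gene and none of the tested angiopoietin-like genes was called. Of the 7 family members that passed the filter, 2 were called lower, 0 were called higher and 5 were not called. Across all tested genes, 6.79% were called, 2.68% lower and 4.11% higher. The family was chosen with earlier results of these data known, so its count is not a test against this share. The median log2 fold change of all tested genes was 0.0. The groups did not overlap for 4 of the 10 genes, with the mutants below for Angpt1 and Angpt2 and above for Angptl1 and Angptl4. Such separation was common, as it was found for 35.5% of all tested genes, for 18.3% with the mutants above and for 17.1% with the mutants below.

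**Figure D1:**
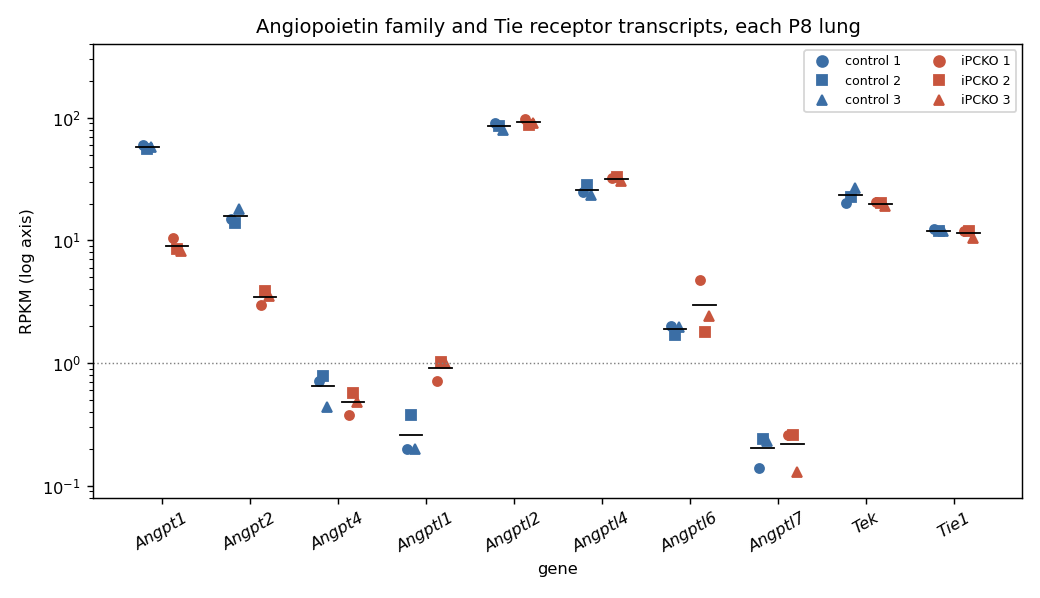
RPKM (log axis) of the 10 genes in each of the 6 lungs, with controls in blue, Yap1,Wwtr1 iPCKO samples in red and group means as horizontal bars; the dotted line marks 1 RPKM. Angpt1 and Angpt2 lie lower in all 3 mutants than in any control, and Angpt4, Angptl1 and Angptl7 lie near or below 1 RPKM.

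Angpt1 (ENSMUSG00000022309; GRCm38, chromosome 15, 42424723 to 42676977, minus strand) was at 60.44, 56.03 and 57.54 RPKM in the 3 controls and at 10.42, 8.57 and 8.14 RPKM in the 3 mutants. Every mutant lay far below every control, and samples within a group were close to each other. The mean fell from 58.0 ± 2.25 to 9.04 ± 1.21 RPKM (SD, n = 3), which is 15.6% of the control level. The log2 fold change was -2.68 (standard error 0.106, 95% confidence interval -2.92 to -2.43, adjusted p = 4.3e-06, limma), a decrease of 5.4- to 7.56-fold over that interval. It had rank 14 from the lowest among fold changes of the tested genes. With the Y-linked difference as a covariate the change was -2.63 (adjusted p = 0.00047). Of the Angpt1 exons, 737 bases (14.2%) overlap the antisense gene Gm17473, and whether the counting used strand is not stated. Fewer cells that express a gene and less RNA per cell cannot be told apart in such bulk samples.

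Angpt2 (chromosome 8, 18690263 to 18741562, minus strand) followed the same direction at a lower level. Controls were at 15.07, 13.94 and 18.15 RPKM and mutants at 3.0, 3.88 and 3.55 RPKM, so that the groups were again well separated. The mean fell from 15.7 ± 2.18 to 3.48 ± 0.45 RPKM, 22.1% of control. Its log2 fold change was -2.14 (standard error 0.132, 95% confidence interval -2.45 to -1.84, adjusted p = 4e-05, limma), and -1.98 with the covariate (adjusted p = 0.0021). Angpt2 lies entirely within Mcph1, on the opposite strand and without shared exons, and Mcph1 itself was not called (log2 fold change -0.21, adjusted p = 0.39, limma). Which cells gave the Angpt2 transcripts in these libraries was not tested.

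Angpt4, which encodes a further ligand of TIE2, was low (chromosome 2, 151911210 to 151945337, plus strand). It was at 0.72, 0.79 and 0.44 RPKM in controls and at 0.38, 0.57 and 0.48 RPKM in mutants, about 16 to 53 reads per library as implied by depth and length. The groups overlapped, and the gene did not pass the filter on low values. Without the filter its log2 fold change was -0.35 (95% confidence interval -0.92 to 0.21, adjusted p = 0.43).

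Summed over the 3 ligands, angiopoietin transcripts amounted to 76.2, 70.8 and 76.1 RPKM in controls and to between 12.2 and 13.8 RPKM in each mutant. The composition of this sum moved less than its size. Angpt1 made up 79.3%, 79.2% and 75.6% of it in controls and 75.5%, 65.8% and 66.9% in mutants. Angpt1 exceeded Angpt2 by 4.01-, 4.02- and 3.17-fold in controls and by 3.48-, 2.21- and 2.29-fold in mutants, and iPCKO 1 lay within the control range. On the log2 scale this ratio was 1.89 ± 0.20 in controls and 1.38 ± 0.36 in mutants, a difference of -0.51 (two-sided exact permutation test, p = 0.2, also after Benjamini-Hochberg adjustment over 5 ratios). With 3 samples against 3 this exact test cannot go below p = 0.1, and the decrease of Angpt1 was thus not shown to exceed that of Angpt2. Angpt1 was 3.0-, 2.48- and 2.13-fold above Tek in controls but at only 0.507, 0.428 and 0.426 of the Tek level in mutants. Whether Angpt1 and Tek transcripts came from the same cells was not tested.

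**Figure D2:**
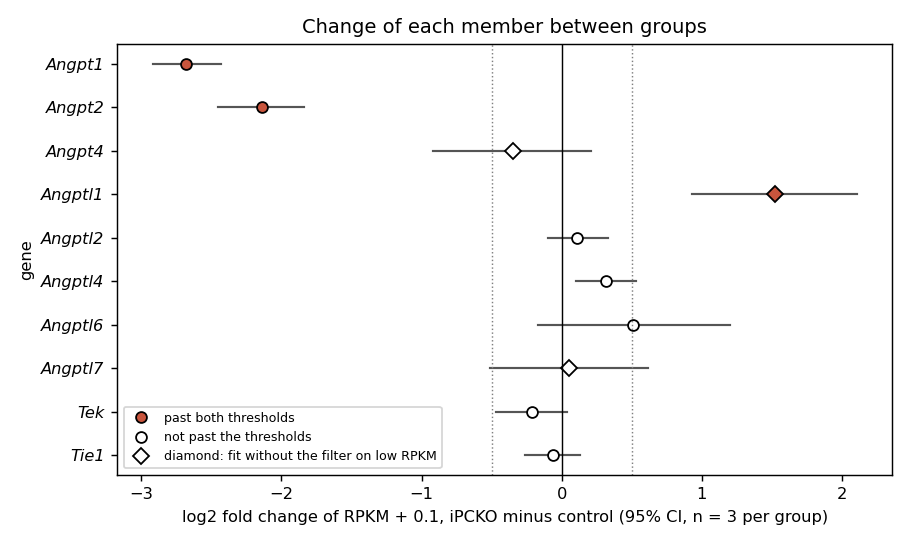
Log2 fold change of RPKM + 0.1 (iPCKO minus control, n = 3 per group) with 95% confidence intervals from limma; dotted lines mark the threshold of 0.5, filled symbols passed both thresholds, and diamonds are from the fit without the filter on low RPKM. The intervals of Angpt1 and Angpt2 lie entirely below -1.8, while those of Tek, Tie1 and Angptl2 include 0.

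The Tie receptors showed a different picture. Tek (chromosome 4, 94739289 to 94874976, plus strand) was at 20.16, 22.6 and 27.01 RPKM in controls and at 20.56, 20.02 and 19.13 RPKM in mutants. Control 3 was the highest sample, and control 1 lay within the range of the mutants. The log2 fold change was -0.21 (95% confidence interval -0.47 to 0.04, adjusted p = 0.25, limma). Tie1 (chromosome 4, 118471191 to 118490061, minus strand) was even more uniform, at 12.33, 11.83 and 11.84 RPKM in controls and 11.9, 12.03 and 10.56 RPKM in mutants, with overlapping groups and a log2 fold change of -0.06 (95% confidence interval -0.26 to 0.13, adjusted p = 0.67). For Tie1 a change of more than 0.26 in either direction lies outside this interval, and for Tek a decrease of up to 0.47 remains inside it.

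Both receptor genes are typically endothelial, and endothelial transcripts were present in these libraries. Pecam1 was at 14.42 to 18.74 RPKM in controls and 17.14 to 17.25 RPKM in mutants, and Cdh5 at 31.56 to 34.47 and 33.44 to 34.74 RPKM. The 10 endothelial markers summed to 316 to 328 RPKM in controls and 298 to 333 RPKM in mutants. Of these, 2 were called higher, the VEGF receptor genes Kdr and Flt1, with log2 fold changes of 0.77 and 0.74. The list went both ways, since 4 markers were lower in every mutant than in any control without being called, namely Emcn (-0.45), Eng (-0.39), Egfl7 (-0.28) and Erg (-0.12). Esam (0.44) was higher in every mutant than in any control, also without being called. Among all tested genes, 17.1% were separated with the mutants below and 18.3% with the mutants above. Relative to the mean log2 level of the 10 markers, Tek was at 0.03, 0.07 and 0.33 in controls and at -0.13, -0.15 and -0.17 in mutants, a difference of -0.29 (exact permutation test, p = 0.1, the smallest possible, adjusted p = 0.125). For Tie1 the difference was -0.14 (exact permutation p = 0.1, adjusted p = 0.125), but it was 0.03 (p = 0.6) when only the markers that were not called were used, and that of Tek was then -0.12 (p = 0.3). With the median over the markers in place of the mean, the differences were -0.55 for Tek and -0.4 for Tie1 (exact permutation p = 0.1 for each). The part of endothelial RNA in the receptor values was not tested.

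The 250 bases upstream of Tek in RefSeq (GRCm38.p6, chr4:94739039-94739288, plus strand) are shown because the deleted coactivators act through TEAD factors, and because ETS factors are known regulators of Tie genes in endothelium. Capitals mark the ETS core, GGAA or its complement TTCC.
Tek: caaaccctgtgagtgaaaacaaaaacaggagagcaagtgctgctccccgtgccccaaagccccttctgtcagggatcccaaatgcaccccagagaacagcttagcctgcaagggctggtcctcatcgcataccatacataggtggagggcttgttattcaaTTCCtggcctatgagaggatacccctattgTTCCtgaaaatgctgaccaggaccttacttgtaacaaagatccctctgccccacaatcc
The window holds 2 ETS cores and no TEAD motif (GGAATG or its complement CATTCC), which contains the ETS core. Upstream windows were available for 7 of the 10 genes, without Angpt1, Angpt2 and Angptl4. The TEAD motif was found in 0 of these 7, compared with 12.6% of all 32851 windows, and the ETS core in all 7, compared with 93.4%. So few windows cannot show a departure from these shares, and the called ligands were not among them. The number of ETS cores was 7 in Tie1, 5 in Angpt4, 4 in Angptl1, 3 in Angptl6 and 2 in each of the others, with a median of 3 over all windows. The windows of Tie1, Angptl1 and Angptl6 overlap the GENCODE span of the same gene, so in that annotation they are not wholly upstream sequence.

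**Figure D3:**
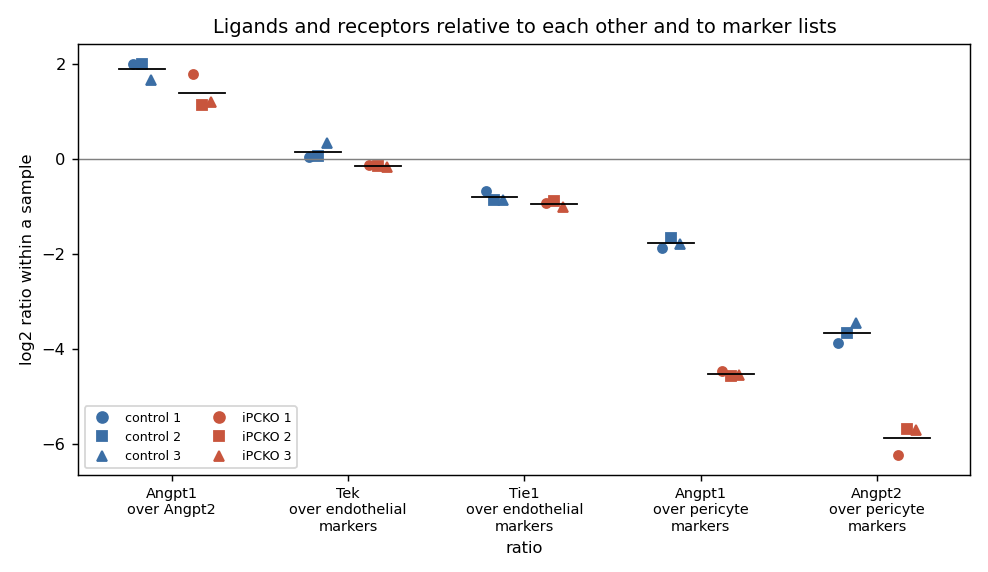
Log2 ratios within each sample, with controls in blue, Yap1,Wwtr1 iPCKO samples in red and group means as horizontal bars: Angpt1 over Angpt2, each receptor gene over the mean log2 level of 10 endothelial markers, and each ligand over that of 10 pericyte markers. The ligands differ by -2.76 and -2.22 relative to pericyte markers, and the receptors by less than 0.3 relative to endothelial markers.

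The ligands were also set against the pericyte markers of the same sample. Angpt1 was at -1.87, -1.66 and -1.8 relative to their mean log2 level in controls and at -4.47, -4.58 and -4.55 in mutants. For Angpt2 these values were -3.87, -3.66 and -3.46 in controls and -6.24, -5.7 and -5.72 in mutants. The differences of -2.76 and -2.22 (exact permutation test, p = 0.1 for each, the smallest possible, adjusted p = 0.125) had the direction of the unscaled fold changes, and both ligands were lower in 3 of 3 mutants. They became -2.14 and -1.6 with the median over the markers, and -2.58 and -2.05 with only the markers that were not called. The 10 markers summed to 3850 to 4830 RPKM in controls and to 3310 to 4100 RPKM in mutants.

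Among the angiopoietin-like genes, Angptl2 was by far the highest and differed little between groups. Its product is a secreted protein with roles in inflammation and tissue remodelling. Angptl2 (chromosome 2, 33216069 to 33247717, plus strand) was at 91.48, 85.34 and 79.19 RPKM in controls and at 97.36, 87.88 and 91.35 RPKM in mutants, with overlapping groups. The log2 fold change was 0.11 (95% confidence interval -0.1 to 0.33, adjusted p = 0.48, limma).

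Angptl4, which encodes an inhibitor of lipoprotein lipase, was the only well-detected angiopoietin-like gene whose groups did not overlap. On chromosome 17 (33773750 to 33781830, minus strand), it was at 24.97, 28.25 and 23.51 RPKM in controls and at 32.13, 32.98 and 30.29 RPKM in mutants. The mutant mean was 1.24 times that of controls, with a log2 fold change of 0.32 (95% confidence interval 0.1 to 0.53), and the gene was not called (adjusted p = 0.057, unadjusted p = 0.0091, limma). With the Y-linked covariate the fold change was 0.17 (adjusted p = 0.56).

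Angptl6 is a growth factor-like member with reported roles in skin and energy metabolism. On chromosome 9 (20873808 to 20879727, minus strand), it was at 2.02, 1.7 and 1.97 RPKM in controls and at 4.75, 1.8 and 2.4 RPKM in mutants, so that iPCKO 1 set the higher mean. The log2 fold change of 0.51 (95% confidence interval -0.17 to 1.2, adjusted p = 0.29, limma) became 0.13 without iPCKO 1. A stretch of 265 exon bases (16.8% of Angptl6 exons) is shared with A230050P20Rik on the opposite strand.

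Angptl1, described as an inhibitor of angiogenesis, and Angptl7, known from the eye, were low throughout. Angptl1 (chromosome 1, 156838562 to 156861078, plus strand) was at 0.2, 0.38 and 0.2 RPKM in controls and at 0.71, 1.02 and 1.01 RPKM in mutants, corresponding to about 11 to 20 and 41 to 115 reads. Each mutant lay above each control, and the mutant mean of 0.916 RPKM was 3.51 times the control mean of 0.261 RPKM. The gene reached 1 RPKM in 2 samples and was not tested with the filter. In the fit without the filter, the log2 fold change of Angptl1 was 1.52 (standard error 0.255, 95% confidence interval 0.93 to 2.11, adjusted p = 0.0096, limma), which passed the thresholds. This size depended on the pseudocount, as it was 0.6 with a pseudocount of 1 and 1.82 with 0.01 (adjusted p = 0.0096 and 0.011). Of the 17678 genes in that fit, 3.89% were called, 2.35% higher, and 30.3% had groups that did not overlap, 16.1% with the mutants above. For Angptl1 the adjusted p-value was between 0.019 and 0.098 when any 1 sample was left out, so that the call was lost in 6 of 6 such fits. Against control 2 alone, which like the mutants lacked Y-linked transcripts, the log2 difference was 1.06.

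Angptl1 lies within Ralgps2, which is transcribed from the opposite strand and was called lower (log2 fold change -0.57, adjusted p = 0.005, limma), a call that was kept in 1 of 6 fits with a sample left out and lost with the covariate (adjusted p = 0.097). The fold change of Ralgps2 itself was similar in these fits, at -0.63 to -0.53 with a sample left out and -0.56 with the covariate. The 2 genes share no exon bases, but 465 bases (16.4%) of the Angptl1 exons overlap Gm37802, also on the opposite strand. Angptl7 (chromosome 4, 148495183 to 148500460, minus strand) was at 0.14, 0.24 and 0.23 RPKM in controls and 0.26, 0.26 and 0.13 RPKM in mutants, 4 to 22 reads per library, and a difference was not detectable at this depth (log2 fold change 0.05 without the filter, adjusted p = 0.92).

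The mean levels of several marker lists also lay higher in the mutants, as did Angptl4 and Angptl1. The mean log2 level of the list was higher by 0.44 for lymphatic endothelium, 0.52 for smooth muscle, 0.4 for epithelium, 0.51 for mesothelium, 1.31 for leukocytes, 3.58 for neutrophils and 2.11 for platelets, each without overlap of the groups. The smooth muscle mean was carried by Cnn1 (log2 fold change 1.11) and Actg2 (1.59), as Acta2 (0.05), Des (-0.04) and Myh11 (-0.09) were not called and the median of the list was 0.05. In the lymphatic list 0 of 3 tested genes were called, with Ccl21a at 0.82, Lyve1 at 0.45 and Flt4 at -0.04. Its other 2 genes, Prox1 and Reln, were below 1 RPKM in all samples. In the mesothelial list Msln (0.98) was called and Upk3b (0.58) was not. Lrrn4 and Wt1 of that list were below 1 RPKM in all samples and overlapped between groups. The lists for pericytes (0.08), endothelium (0.08), fibroblasts (0.07) and erythrocytes (0.22) overlapped. Their part in the values of Angptl4 and Angptl1 was not tested.

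The order of levels within the family shifted between groups. In controls Angptl2 (85.3 RPKM) ranked first, followed by Angpt1 (58.0), Angptl4 (25.6), Tek (23.3), Angpt2 (15.7), Tie1 (12.0), Angptl6 (1.90), Angpt4 (0.649), Angptl1 (0.261) and Angptl7 (0.203). The ranges of Angptl4 and Tek, and those of Angptl1 and Angptl7, overlapped, and all other neighbours were separated in all 3 controls. In mutants the order was Angptl2 (92.2 RPKM), Angptl4 (31.8), Tek (19.9), Tie1 (11.5), Angpt1 (9.04), Angpt2 (3.48), Angptl6 (2.98), Angptl1 (0.916), Angpt4 (0.479) and Angptl7 (0.217). Here Angpt2 and Angptl6 overlapped, and the other neighbours did not. Angpt1 thus moved from above both receptor genes to below them. The paper found Tek in sorted lung endothelial cells but not in pericytes. This order of levels therefore need not hold within a single cell type.

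The surrounding pathway was examined next. Of 33 listed genes for receptors, adaptors, effectors and binding partners, 31 were tested, of which 1 was called lower, 3 higher and 27 neither, with a median log2 fold change of 0.08. The 4 called genes are 12.9% of those tested, beside 6.79% of all tested genes. Ptprb encodes the endothelial phosphatase that counteracts TIE2. It was at 23.77 to 26.49 RPKM in controls and at 27.55 to 30.07 RPKM in mutants and was not called (log2 fold change 0.22, adjusted p = 0.12, limma). Svep1, whose product is a ligand of TIE1, gave -0.15 (adjusted p = 0.37).

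Of the 22 tested genes of Tie and integrin signalling, 2 (9.09%) were called, both integrin subunits. This share is close to the 6.79% of all tested genes. Integrins can bind angiopoietins and some angiopoietin-like proteins. Itga5, the alpha subunit of a fibronectin receptor, was at 18.88, 16.78 and 17.92 RPKM in controls and at 28.24, 30.83 and 28.96 RPKM in mutants. All mutants lay above all controls, and the log2 fold change was 0.71 (adjusted p = 0.00099, limma), although the call was lost with the Y-linked covariate (0.8, adjusted p = 0.016). Itgb3 rose from 3.91, 4.68 and 4.83 RPKM to 10.65, 11.95 and 13.18 RPKM, a log2 fold change of 1.4 (adjusted p = 0.00019). The value against control 2 alone was 1.32 (adjusted p = 0.009 with the covariate).

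Itgb3 is also abundant in platelets. The 5 tested genes of the platelet list, which holds Itgb3 itself, were all called higher. Besides Itgb3 these were Pf4, Ppbp, Itga2b and Gp9, with log2 fold changes of 2.21, 3.11, 1.76 and 2.45. With Itgb3 included, the list of 6 summed to 9.78 to 11.5 RPKM in controls and 29.5 to 71.3 RPKM in mutants. The part of platelet RNA in the Itgb3 value was not tested. The other integrin genes did not pass the thresholds, with log2 fold changes of 0.24 for Itgav (adjusted p = 0.084), 0.26 for Itgb5 (adjusted p = 0.32) and 0.08 for Itgb1 (adjusted p = 0.68).

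Of the 9 partners of angiopoietin-like proteins, Lipg and Pirb were called (22.2%, beside 6.79% of all tested genes). Lipg encodes endothelial lipase, a relative of lipoprotein lipase. It fell from 53.77, 51.4 and 66.82 RPKM to 1.04, 2.07 and 2.57 RPKM, a log2 fold change of -4.93 (adjusted p = 2.8e-05, limma), and of -4.78 with the covariate (adjusted p = 0.0015). Lpl, the lipase inhibited by ANGPTL4, and Gpihbp1, which anchors it to capillary endothelium, gave log2 fold changes of 0.03 and -0.03 (adjusted p = 0.86 and 0.92).

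Pirb, a receptor for ANGPTL2 on myeloid cells, was at 0.91, 1.45 and 1.11 RPKM in controls and at 2.4, 4.66 and 6.02 RPKM in mutants. The fold change of Pirb was 1.76 on the log2 scale (adjusted p = 0.0068, limma), but the call was kept in only 1 of 6 fits with a sample left out and was lost with the covariate (1.43, adjusted p = 0.14). The mutant with the lowest Pirb (iPCKO 1) also had the lowest mean log2 level of neutrophil markers (4.14, against 5.99 in iPCKO 2 and 7.03 in iPCKO 3). The 6 neutrophil markers summed to 71.9 to 100 RPKM in controls and 405 to 4350 RPKM in mutants, and the 6 leukocyte markers to 37.6 to 51.5 and 72.0 to 125 RPKM. Their part in the value of Pirb was not tested.

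**Figure D4:**
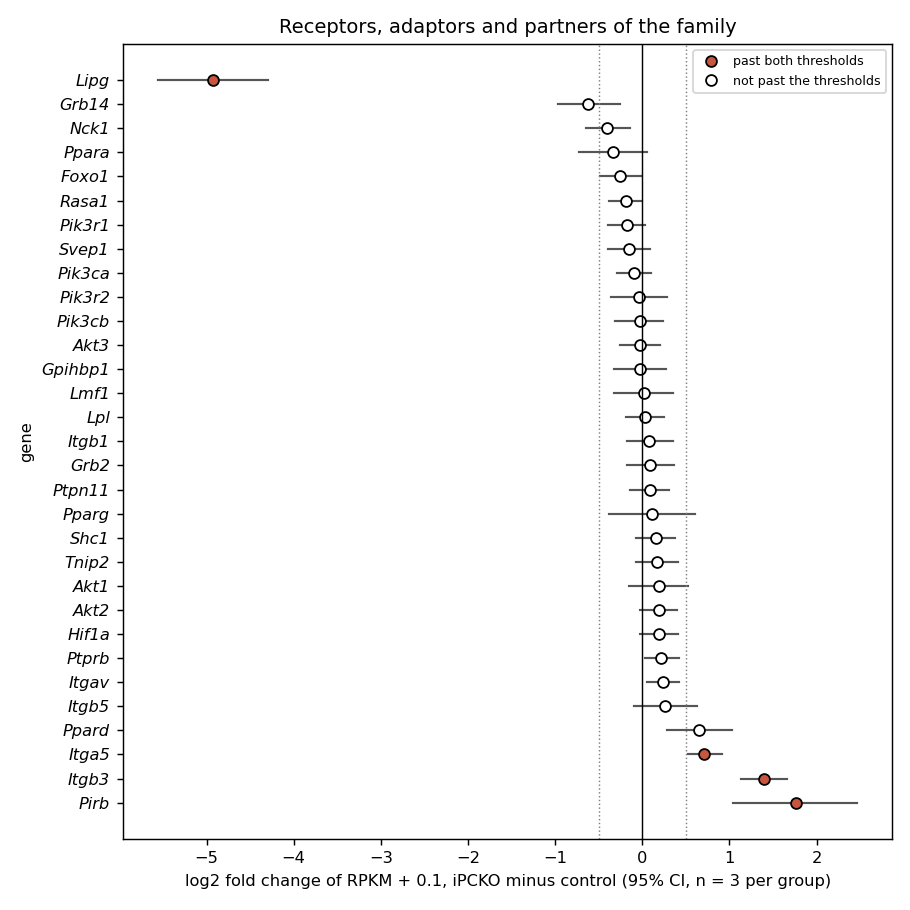
Log2 fold change of RPKM + 0.1 (iPCKO minus control, n = 3 per group) with 95% confidence intervals from limma for the 31 tested genes of the surrounding pathway, sorted by value; filled symbols passed both thresholds, and dotted lines mark 0.5. Lipg at -4.93 stands far to the left, and Itga5, Itgb3 and Pirb are the only filled symbols to the right.

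Genes with profiles most like those of the ligands and receptors were named by the root mean square difference of centred log2 values over the 6 samples. Angpt1 was nearest to Cpa1 (0.143), 1190002N15Rik (0.146) and Cryab (0.158), all called lower, while Angpt2 lay at 0.355 from it. No tested gene came within 0.1 of Angpt1. Because the measure includes the difference between groups, genes nearest to Angpt1 and Angpt2 had to be lower in mutants as well. For Angpt2 the nearest gene was Parm1 (0.0978), at 72.84, 61.57 and 76.33 RPKM in controls and 14.03, 15.35 and 15.29 RPKM in mutants, followed by Nup62cl (0.171) and Tgfb2 (0.184). Tek was nearest to Mpp5 (0.0302), Trmt9b (0.0354) and Fam120c (0.0411), and Tie1 to Des (0.0163), Thumpd3 (0.0165) and Mrps2 (0.018). These short distances are common among flat profiles, as 418 genes lay within 0.1 of Tek and 1936 within 0.1 of Tie1.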

How the data were processed

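Ribosome-associated RNA was measured in 6 lungs, 3 per group, and samples were assigned from the GEO labels. Libraries of input RNA were not analysed here. For each stranded total RNA library, the authors aligned read pairs by TopHat (mm10, GRCm38), obtained gene counts from HTSeq 0.6.1 for DESeq2, and deposited RPKM values for 21603 genes. The exon length and annotation behind the RPKM and the strand setting of the counting are not given in the sources used here. Depth was inferred from whole-read steps of low RPKM values in genes with a single transcript, of which 75.0% to 76.95% at up to 10 reads came out whole to a tolerance of 0.02 reads, and reads per gene are approximate. Of all genes, 3925 were 0 in every sample and 21375 matched a symbol in GENCODE M21.

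Without read counts, log2(RPKM + 0.1) was tested with limma (lmFit and eBayes, trend on mean level), adjusting p by Benjamini-Hochberg over all 12034 genes with at least 1 RPKM in at least 3 samples, with no further scaling. Scripts were tested on simulated data with 200 changed genes. Ratios within samples were compared by two-sided exact permutation tests and adjusted over the 5 ratios by Benjamini-Hochberg. The members, the pathway genes and the marker lists were chosen with earlier results of these data known. All members were named, together with pathway genes past the thresholds and 8 others named by rule, and the 3 genes nearest to each of Angpt1, Angpt2, Tek and Tie1. Alternatives were other pseudocounts, filters, scalings and thresholds, sample weights, no trend, a replicate block and each sample left out. The Y-linked covariate, marker lists without called genes, and other pseudocounts or samples left out in the fit without the filter were added after seeing the data. Software was limma 3.58.1 under R 4.3.3, and under Python 3.11.15 the packages scipy 1.17.1, pandas 2.3.3, numpy 2.4.6 and, for figures, matplotlib 3.10.9.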

Additional observations from a re-analysis of the deposited data

How the results depend on the processing

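Angpt1 and Angpt2 were called lower under all 18 alternatives that change 1 choice, with log2 fold changes of -2.78 to -2.56 and -2.23 to -1.9. With the filter off and a sample left out together, Angpt1 was called in 5 of 6 fits (adjusted p = 0.014 without iPCKO 2) and Angpt2 in 4 of 6 (0.014 without control 3, 0.018 without iPCKO 2, limma), at fold changes of -2.78 to -2.6 and -2.23 to -2.04. Angptl1 was the only further member called, in the fit without the filter. The number of genes called (817) was 1313 at an adjusted p-value below 0.05, 411 at an absolute log2 fold change above 1, 1590 with sample weights, 124 with the Y-linked covariate, and 382 to 899 with 1 sample left out, lowest without control 3 (382), iPCKO 2 (414) and iPCKO 3 (499). Pathway genes called (4) were 7 with sample weights, 2 with the covariate, and 3 to 4 with 1 sample left out. The cause of these shifts was not tested. Relative to endothelial markers, the difference of Tie1 reversed to 0.03 with markers that were not called, and without a sample it was -0.17 to -0.08. That of Tek was then -0.35 to -0.2, the log2 ratio of Angpt1 to Angpt2 differed by -0.72 to -0.39, and relative to pericyte markers Angpt1 differed by -2.8 to -2.7 and Angpt2 by -2.33 to -2.05. Over all alternatives the differences were -2.8 to -2.14 for Angpt1, -2.33 to -1.6 for Angpt2 and -0.55 to -0.12 for Tek, and -0.4 to 0.03 for Tie1, with the values nearest 0 for the ligands and farthest from 0 for the receptors under the median over the markers. Angptl7 reversed to -0.1, -0.06 and -0.05 in 3 of 6 fits without a sample (range -0.1 to 0.27), and Angptl1 had log2 fold changes of 1.39 to 1.75 there. With pseudocounts of 1 and 0.01 Angptl1 was at 0.6 (adjusted p = 0.0096, limma) and 1.82 (adjusted p = 0.011). Same-numbered samples deviated together with r of 0.238, 0.092 and 0.022 and differently numbered ones with r of -0.298 to 0.273, and control 2 correlated best with iPCKO 3, so the numbers were not taken as pairs. A replicate block gave 922 genes, and 2 members and 4 pathway genes as before. Depth limits Angpt4, Angptl1 and Angptl7, and RPKM values do not carry the counting error of each gene.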
